A study of Mus musculus with 16 samples.

Results

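The genes described here encode the alpha subunits of the stimulatory and inhibitory G proteins and the subunits of protein kinase A (PKA), the enzyme through which cyclic AMP (cAMP) acts on most of its targets. They are Gnas, Gnai1, Gnai2, Gnai3, Prkaca, Prkacb, Prkar1a, Prkar1b, Prkar2a and Prkar2b, chosen by gene symbol, and make up 10 of the 46078 genes in the count table. RNA sequencing was performed on mouse cells labelled as engineered juxtaglomerular (JG) cells, the kidney's renin-secreting type, in culture and with a YFP reporter driven by the renin promoter. Cells of all groups were transfected, either with a non-mammalian control microRNA precursor (control) or with miR-106b, and were collected 48 h later. Polyadenylated RNA (polyA RNA) was taken from 4 control and 4 miR-106b cultures, and RNA bound to the RISC protein Argonaute 2 was immunoprecipitated (Ago2-IP RNA) from 4 cultures of each transfection, which gives 16 libraries in 4 groups of 4. The labels name no batch, and the comparisons ask how miR-106b changes mRNA levels, Ago2-bound RNA and the ratio of the one to the other (Ago2:polyA ratio).

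In the cAMP pathway, an activated receptor loads GTP onto a G protein alpha subunit. Gs alpha, the product of Gnas, stimulates adenylate cyclase to make cAMP, and the Gi alpha subunits (Gnai1, Gnai2 and Gnai3) inhibit it. PKA is held inactive as a complex of catalytic subunits (Prkaca and Prkacb encode the alpha and beta forms) and regulatory subunits (Prkar1a and Prkar1b for type I, Prkar2a and Prkar2b for type II), and binding of cAMP to the regulatory subunits frees the catalytic ones, which phosphorylate CREB and other proteins. In JG cells this route is known as the main stimulus of renin synthesis and release.

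The sequence of the transfected microRNA and of the stretches it could pair with are shown because they define which of these mRNAs carry a seed match. In RefSeq (GRCm38.p6) mature mmu-miR-106b-5p lies on the minus strand at chr5:138165787-138165807, and its seed (bases 2 to 8) is in capitals.
mmu-miR-106b-5p: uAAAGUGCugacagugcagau
In the longest annotated 3′UTR of each gene (GENCODE M21, GRCm38), the mRNA strand was searched for GCACTTT, which pairs with bases 2 to 8, and for CACTTTA, which pairs with bases 2 to 7 and has an A opposite base 1. The 8-letter match GCACTTTA contains both of them. GCACTTT was found in 0 of the 10 genes, and at least 1 of the 2 motifs in 3 of 10, against 14.8% and 22.2% of the 13222 tested genes with an annotated 3′UTR. All 4 matches were CACTTTA, shown in capitals within 29 bases of the mRNA strand. The Gnas match lies at chr2:174346287-174346293 (plus strand), the Gnai1 match at chr5:18265898-18265904 (minus strand), and those of Prkar2a at chr9:108747569-108747575 and chr9:108747878-108747884 (plus strand). The longest Gnas 3′UTR is that of 1 of several forms of the locus. Its match, counted among the 3 of 10, need not lie in the 3′UTR of the Gs alpha form, where these bases may be coding, which was not examined.
Gnas: actgctaccctCACTTTAcctgcgccgtg
Gnai1: ttcaagttcatCACTTTAtgtcaaaaaat
Prkar2a, upstream match: tggcagctacaCACTTTAcagctgtgtct
Prkar2a, downstream match: ggaggtgttgtCACTTTAtctgacctgag
Outside these longest 3′UTRs, GCACTTT was present in 1 of 16 annotated 3′UTRs of Gnas and in the part of the Prkar1b transcript before its 3′UTR. A match describes letters only, and binding of the microRNA at these positions was not measured.

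The libraries held 2579086 to 9459585 counts on genes, and median depth was 6450099 for polyA control, 3645937.5 for polyA miR-106b, 3638859.5 for Ago2-IP control and 3264121.5 for Ago2-IP miR-106b. Of the JG cell markers examined, Ren1 (renin) had 0 counts in all 16 libraries. This allows up to 0.317 to 1.16 CPM (counts scaled to library size) per library. Akr1b7 did not exceed 0.574 CPM. Other genes listed with them were detected, with Gja5 at 1.27 to 10.1 CPM and Gja4 at 8.49 to 28.9 CPM over all 16 libraries. Foxd1 was at 20.2 to 123 CPM in the polyA libraries and at 0 to 8.41 CPM in the Ago2-IP libraries. The mural genes spread widely in polyA control, from 0.740 to 1.76 CPM for Cnn1, 12.4 to 17.9 for Myh11, 26.5 to 39.3 for Cspg4 and 33.7 to 45.3 for Rgs5 up to 475 to 537 for Tagln, 641 to 844 for Acta2 and 926 to 1305 for Des, which heart muscle also expresses. In every Ago2-IP library Acta2 (240 to 265 CPM) and Tagln (76.0 to 97.6 CPM) lay below every polyA library, and Rgs5, Myh11, Cspg4 and Des above every polyA library. Of the 13 genes on the JG and mural list 11 or 12 had counts in each library. Renin, the defining JG marker, was thus not detected at this depth, whereas mural genes were, and cardiac muscle markers were abundant. The 25 genes of a cardiac muscle list summed, scaled to library size only, to 24630 to 35034 CPM in polyA control and 48101 to 83256 CPM in polyA miR-106b libraries. Among the immunoprecipitates the sum was 111451 to 118771 CPM for control and 108188 to 118798 CPM for miR-106b. With miR-106b, 22 of the 23 cardiac genes tested rose in polyA RNA and 0 changed in Ago2-IP RNA. Myh6, the alpha cardiac myosin heavy chain, was at 8371 to 11928 CPM in polyA control and at up to 40531 CPM in Ago2-IP libraries. Lists for endothelium (10 of 10 tested rose in polyA RNA), leukocytes (7 of 8) and red cells (4 of 5) followed the same order of groups. So did the sum of the JG and mural list, at 2503 to 2737 CPM in polyA control, 3499 to 4448 CPM in polyA miR-106b and 4836 to 5378 CPM in Ago2-IP libraries, and 6 of its 11 genes tested rose in polyA RNA and 1 fell. For this list the order rested on Des, at 926 to 1305 CPM in polyA control, 1796 to 3078 CPM in polyA miR-106b and 3948 to 4442 CPM in Ago2-IP libraries. The sum of the rest of the list overlapped between the polyA groups and was lowest in the Ago2-IP libraries. The part of these cell types in any result below was not tested, and in bulk RNA fewer cells of a type cannot be told apart from less RNA per cell.

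**Figure D1:**
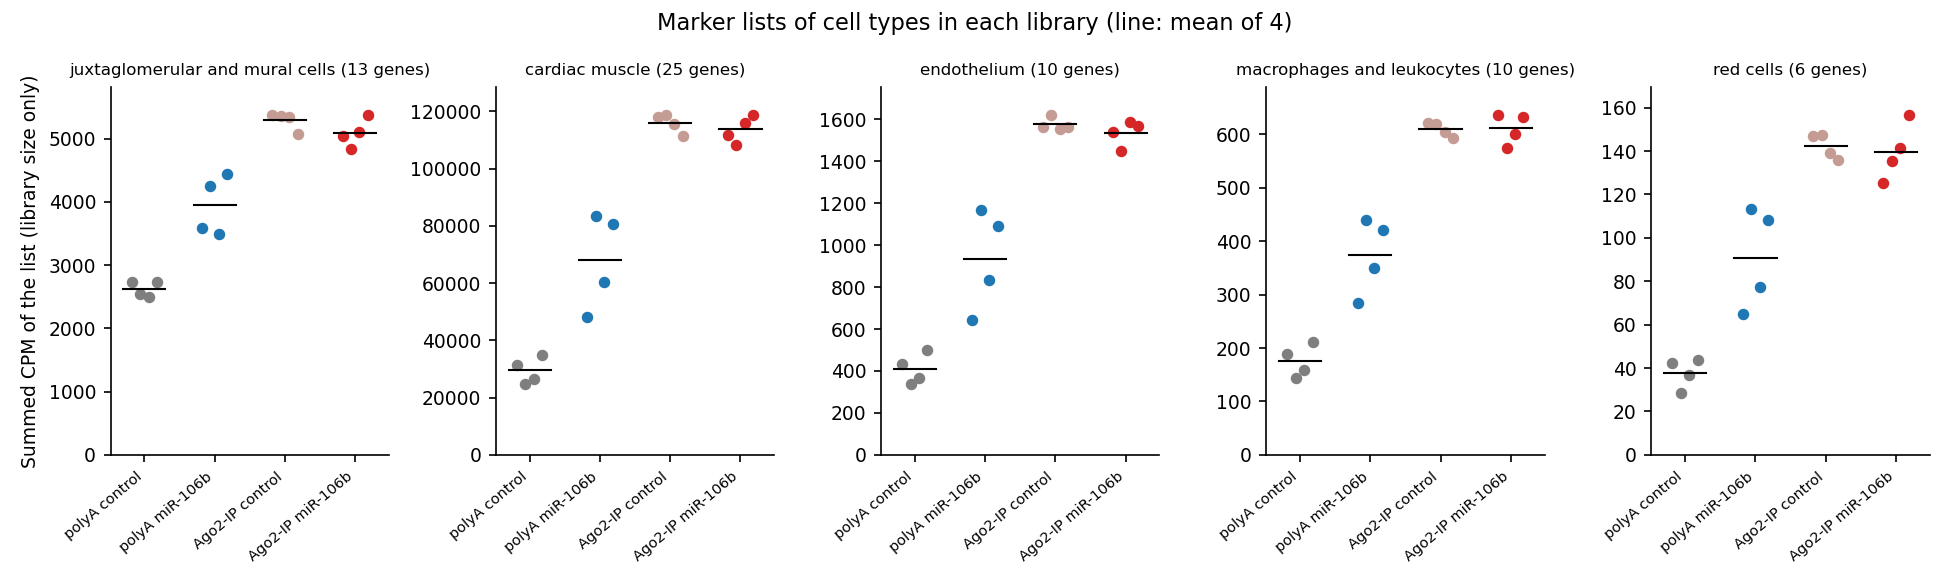
Summed CPM of 5 lists of cell type markers (y axes, scaled to library size only) in each of the 16 libraries, by group; points are libraries and lines are means of 4. For all 5 lists every polyA miR-106b library lay above every polyA control library and below every Ago2-IP library. For the JG and mural list this order rested on Des, which heart muscle also expresses, and the rest of the list did not keep it.

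In polyA RNA, miR-106b was accompanied by a rise of Prkaca and by falls of Prkar2b and Gnai3, while the other 7 genes did not pass the test. All 10 genes passed the filter on low counts and were tested by the quasi-likelihood F test of edgeR, under Benjamini-Hochberg adjustment over 14897 genes and a threshold of 0.05. Thus 3 of 10 changed, 1 upwards and 2 downwards, where 40.5% of all genes tested changed, 19.0% upwards and 21.5% downwards, so that the share among these genes was near the background. Leaving out 1 library at a time gave 2 to 4 of 10, with 2 when polyA control replicate 3 was left out. Their median log2 fold change was 0.01 against -0.05 over all genes, and their median size of change was 0.30 against 0.44 in log2. The control and miR-106b libraries did not overlap for 4 of the 10 genes, near the 38.3% of all genes tested. Levels given for comparisons between transfections are CPM scaled by TMM within an RNA kind, listed for replicates 1 to 4.

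**Figure D2:**
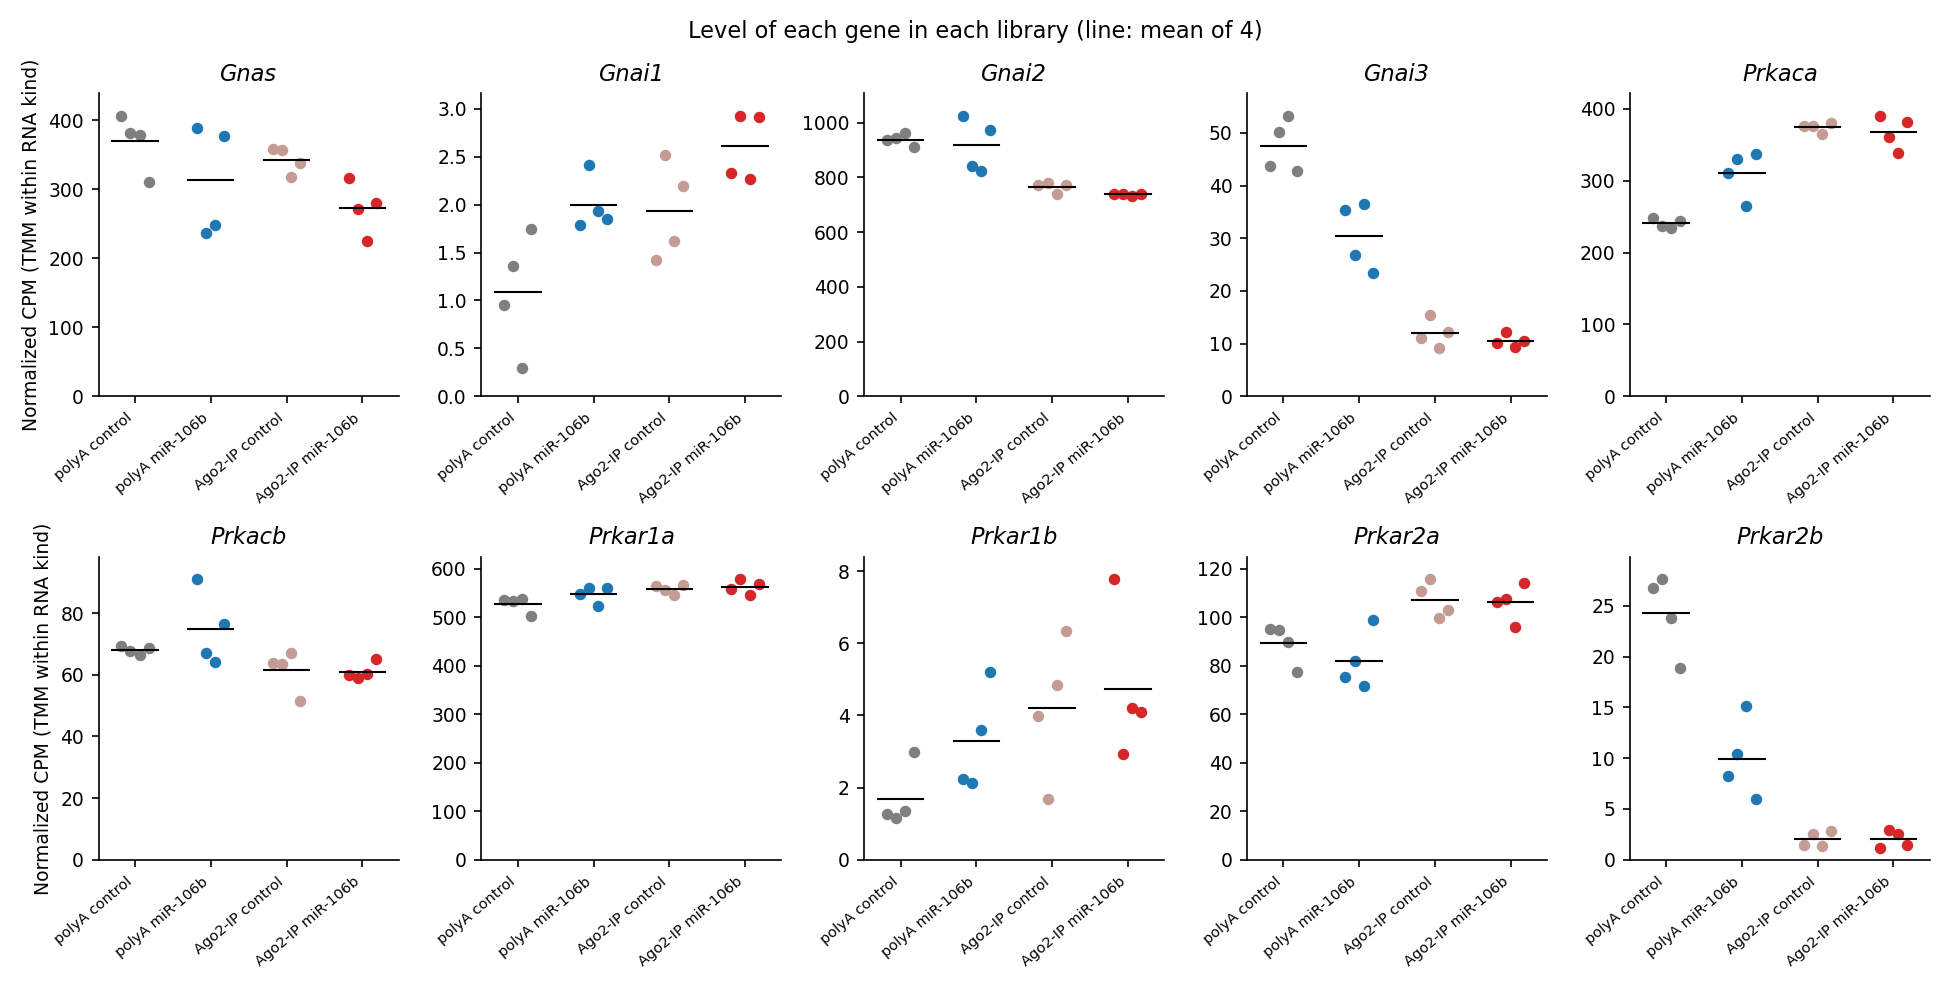
Level of each of the 10 genes (y axes, CPM scaled by TMM within an RNA kind, each from 0) in the 16 libraries, by group; points are libraries and lines are means of 4. Within polyA RNA Prkaca was higher and Gnai3 and Prkar2b were lower in every miR-106b than in every control library, and in Ago2-IP RNA the transfections overlapped for every gene except Gnas.

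Gnas lies at chr2:174284320-174346744 (plus strand, GRCm38) and has 16 annotated protein-coding transcripts, among them Gs alpha and the imprinted long forms of the locus, which gene counts do not separate. It had 406, 382, 378 and 310.2 CPM in polyA control and 389, 237, 248 and 378 CPM in polyA miR-106b. Replicates 2 and 3 of miR-106b were lower than all control libraries and replicates 1 and 4 lay within their range, so that the groups overlapped and the change was not called (log2 fold change -0.24, SE 0.17, adjusted p = 0.285). The miR-106b libraries were the more spread, with 313 ± 81.6 CPM against 369 ± 41.2 CPM in control (SD, n = 4 each). In Ago2-IP RNA, Gnas had 358, 356, 318 and 338 CPM in control and 316, 272, 224 and 279.7 CPM in miR-106b. Here every miR-106b library was below every control library, by -0.33 in log2 (SE 0.10). The unadjusted p of the quasi-likelihood test was 0.0127 and the adjusted p 0.732, and the exact permutation p was 0.0286 (two-sided), the smallest that 4 against 4 libraries allow. The fall passed the threshold when Ago2-IP miR-106b replicate 1 was left out (-0.40, adjusted p = 0.00294), without the filter on low counts (-0.34, adjusted p = 2.23e-05) and with a replicate block (-0.34, adjusted p = 0.0151). The counting strand is not stated and the libraries are unstranded, and 22.0% of the exon bases of Gnas are shared with the antisense genes Nespas and Gm20721, so that reads there cannot be assigned to one of them.

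Of the Gi alpha genes Gnai3 was the one called, and the responses were not tested against each other. Gnai2 (chr9:107614125-107635367, minus strand), the leading Gi alpha mRNA here, was at 937, 943, 961 and 910.0 CPM in polyA control and at 1025, 842, 825 and 975 CPM in polyA miR-106b. These values overlapped, and the change of -0.03 in log2 (SE 0.12, adjusted p = 0.847) turned its sign under other scalings. Gnai3 (chr3:108107280-108146146, minus strand) fell, from 43.7, 50.3, 53.2 and 42.9 CPM to 35.4, 26.8, 36.4 and 23.4 CPM. All 4 miR-106b libraries were below all 4 controls, and the log2 fold change was -0.63 (SE 0.15, adjusted p = 0.00578, exact permutation p = 0.0286, two-sided). Without polyA control replicate 3, which held the highest Gnai3 level, the change was -0.49 and the call was lost (adjusted p = 0.0551). Gnai1 (chr5:18265135-18360355, minus strand), which carries a CACTTTA match, was close to the limit of detection, with 2 to 13 reads in the polyA control and 5 to 9 reads in the polyA miR-106b libraries. Its 4 miR-106b libraries, at 1.79, 2.41, 1.93 and 1.85 CPM, were above the controls at 0.949, 1.36, 0.300 and 1.75 CPM, and the change was not called (log2 fold change 0.86, SE 0.47, adjusted p = 0.159).

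Of the catalytic subunits of PKA, Prkaca (chr8:83972993-83996443, plus strand) rose. It was at 249, 237, 234 and 244 CPM in polyA control and at 310.5, 330.0, 264 and 337 CPM in polyA miR-106b. All 4 miR-106b values exceeded all 4 controls, with means of 241 ± 6.81 and 311 ± 32.7 CPM (SD, n = 4 each), a 1.29-fold rise (log2 fold change 0.37, SE 0.11, adjusted p = 0.0165, exact permutation p = 0.0286, two-sided). The call held in all 16 alternative fits of polyA RNA, where the log2 fold change was between 0.32 and 0.49. Prkacb (chr3:146729574-146812990, minus strand) was at 69.3, 67.6, 66.6 and 68.8 CPM in polyA control and at 90.9, 67.2, 64.3 and 76.4 CPM in polyA miR-106b. Only replicates 1 and 4 of miR-106b were above the controls, and the change was not called (0.14, SE 0.12, adjusted p = 0.394).

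Among the regulatory subunits, Prkar2b, the RII beta form, showed the largest change of the 10 genes in polyA RNA. Prkar2b (chr12:31958476-32061296, minus strand) fell from 26.7, 27.6, 23.8 and 18.9 CPM in control to 8.29, 10.4, 15.2 and 5.94 CPM in miR-106b. The groups were well apart, with means of 24.3 ± 3.92 and 9.96 ± 3.94 CPM (SD, n = 4 each) and the change was -1.27 in log2 (SE 0.23, adjusted p = 0.00123, exact permutation p = 0.0286, two-sided). The call held in all 16 alternative fits, at -1.54 to -1.09. Prkar2a (chr9:108689314-108750436, plus strand), the RII alpha form with both CACTTTA matches shown above, was at 95.2, 94.9, 89.7 and 77.5 CPM in control and at 75.3, 82.2, 71.5 and 99.0 CPM in miR-106b. The groups overlapped and the change was not called (-0.13, SE 0.12, adjusted p = 0.439).

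The type I subunits did not pass the test. Prkar1a (chr11:109649405-109669656, plus strand), the most abundant regulatory subunit, was at 535, 533, 539 and 502.5 CPM in control and 549, 559.8, 524 and 560.1 CPM in miR-106b, which overlap (0.06, SE 0.10, adjusted p = 0.694). Prkar1b (chr5:139017306-139150001, minus strand), known mainly from brain, had 8 to 17 reads per polyA library, or 1.27, 1.15, 1.35 and 2.97 CPM in control and 2.24, 2.14, 3.59 and 5.19 CPM in miR-106b. Control replicate 4 lay among the miR-106b values, and the change of 0.95 (SE 0.43) had an adjusted p of 0.0896. Left out in turn, polyA control replicate 4 (1.33, adjusted p = 0.0255) and polyA miR-106b replicate 1 (1.19, adjusted p = 0.0387) each brought Prkar1b past the threshold, as did edgeR's likelihood ratio test (1.05, adjusted p = 0.0195). Prkar1b shares 8.95% of its exon bases with Gm15672.

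The cardiac list differed between the polyA miR-106b libraries themselves, at 48101, 83256, 60220 and 80615 summed CPM for replicates 1 to 4. Replicates 2 and 4, with the higher sums, also had the higher Prkaca levels (330.0 and 337 CPM) and the lower Gnai3 levels (26.8 and 23.4 CPM). Neither gene followed the full order of the sums. Replicate 1, with the lowest sum, had more Prkaca (310.5 CPM) than replicate 3 (264 CPM), and Gnai3 was lower in replicate 4 than in replicate 2. Prkar2b did not split in this way, with 10.4 CPM in replicate 2 against 8.29 CPM in replicate 1, and Gnas was high in replicates 1 and 4. A relation to the cardiac sums was not tested.

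In Ago2-IP RNA, 0 of the 10 genes changed with miR-106b, and neither did any other gene (0% called, 0% in each direction). By unadjusted p under 0.05 there was 1 of 10, Gnas, against 5.54% of genes tested, and the groups failed to overlap for 1 of 10, again Gnas, against 3.24%. DESeq2's Wald test called 2 of all genes and edgeR's likelihood ratio test 18, of which none was among the 10. The genes that changed in polyA RNA had close values in the immunoprecipitates. Prkaca was at 376, 376, 366 and 381 CPM in control and 390.3, 361, 339 and 382 CPM in miR-106b, a change of -0.03 in log2 (SE 0.05, adjusted p = 0.968). Gnai3 was at 11.1, 15.4, 9.16 and 12.3 CPM and at 10.1, 12.3, 9.37 and 10.5 CPM (-0.18, SE 0.21, adjusted p = 0.951). Prkar2b was at 1.43, 2.52, 1.35 and 2.85 CPM and at 1.17, 2.93, 2.59 and 1.46 CPM, from 3 to 13 reads per library (SE 0.51 in log2). With reads this few the depth limits what could be seen for Prkar2b and for Gnai1 (SE 0.48). Gnai2 was at 732 to 740.3 CPM in the miR-106b immunoprecipitates and at 738 to 779.5 CPM in control (-0.05, SE 0.04, adjusted p = 0.916).

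**Figure D3:**
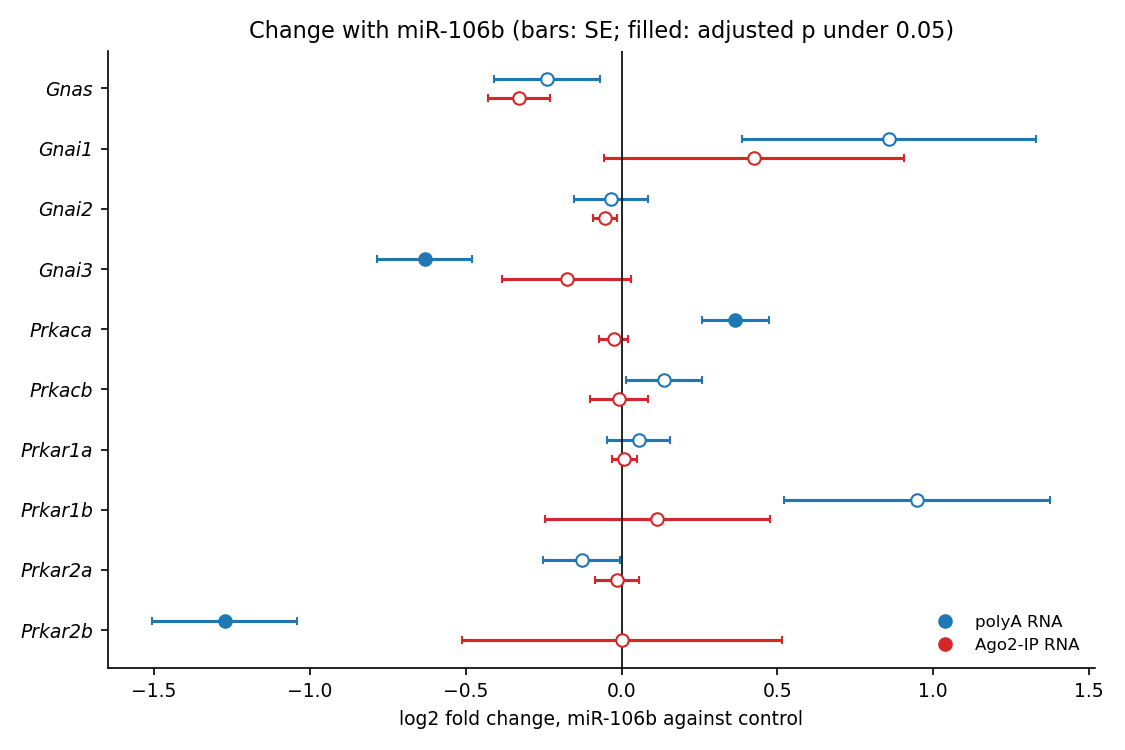
Log2 fold change with miR-106b (x axis) of each gene in polyA RNA (blue) and in Ago2-IP RNA (red); bars are SE from edgeR fits of 8 libraries each and filled points have an adjusted p under 0.05. In polyA RNA Prkaca (0.37), Gnai3 (-0.63) and Prkar2b (-1.27) were called, and none in Ago2-IP RNA.

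The change of the Ago2:polyA ratio with miR-106b was tested over all 16 libraries as the interaction between transfection and RNA kind, and 1 of the 10 genes passed, Prkaca. Over all genes tested 27.3% passed, 7.61% upwards and 19.7% downwards, and the median log2 change was -0.21 for the 10 genes and -0.07 over all genes. The log2 ratio of Prkaca moved by -0.54 (SE 0.12, adjusted p = 0.00193, exact permutation p = 0.00612 over 4900 relabellings, two-sided). Its polyA level rose, against a change of -0.03 in Ago2-IP RNA. These changes were scaled within each RNA kind and the interaction over all 16 libraries, so that they do not add up to -0.54. The call of the interaction held in all 24 alternative fits (-0.61 to -0.36). For Prkar2b the ratio changed by 1.13 (SE 0.49, adjusted p = 0.0904, exact permutation p = 0.0600), and it passed without polyA miR-106b replicate 3 (1.39, adjusted p = 0.0233), without the filter on low counts (1.27, adjusted p = 0.0404) and with the likelihood ratio test (1.21, adjusted p = 0.0356). For the other 8 genes the adjusted p was between 0.179 and 0.904. The ratio of Prkar1a changed by -0.19 (SE 0.11, adjusted p = 0.214), with an exact permutation p of 0.0102.

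Between the RNA kinds themselves, Prkar2b and Gnai3 were lower and Prkaca, Prkar2a and Prkar1a higher in Ago2-IP RNA in both transfections, the last depending on the scaling. On CPM scaled by TMM over all 16 libraries, 7 of the 10 genes differed between Ago2-IP and polyA RNA in control cells, 5 higher and 2 lower in Ago2-IP, where 69.7% of all genes did (35.1% higher, 34.6% lower). In miR-106b cells 5 of 10 differed, 3 higher and 2 lower, against 46.4% of all genes (21.9% higher, 24.5% lower). Both shares were near the background, and the count in control cells was 4 with at least 10 counts in every library, where 3 of the 10 genes were no longer tested.

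**Figure D4:**
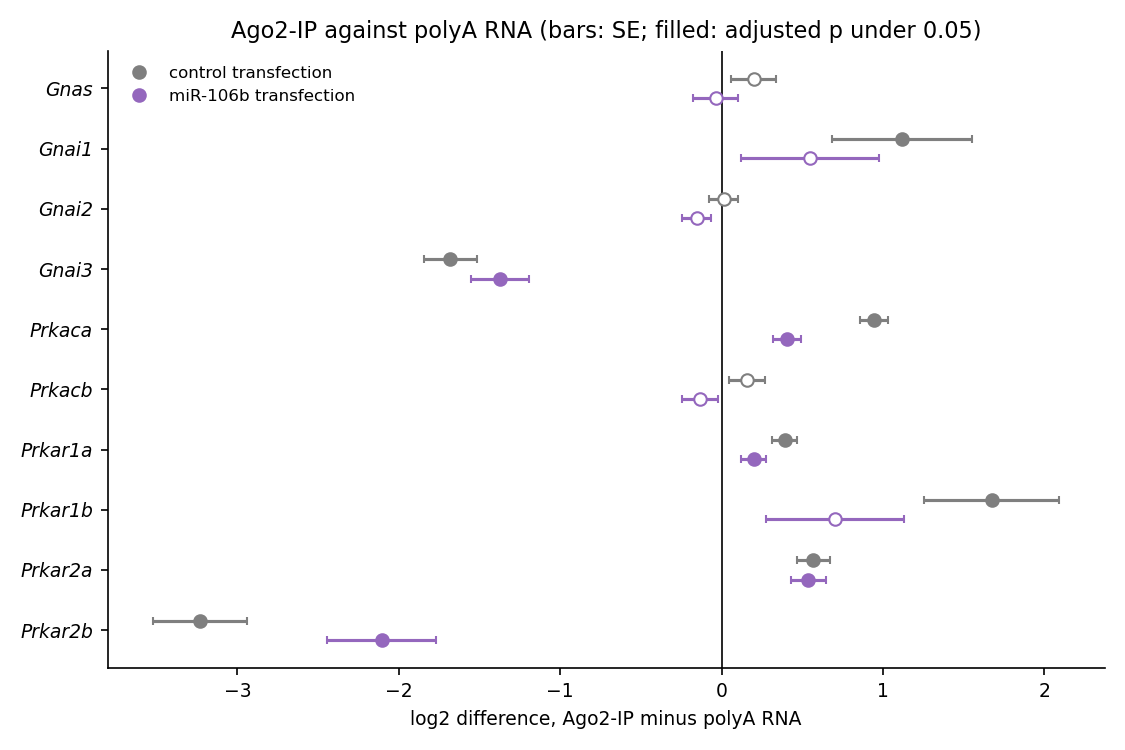
Log2 difference of Ago2-IP minus polyA RNA (x axis, TMM over 16 libraries) for each gene in control (grey) and miR-106b (purple) cells; bars are SE and filled points have an adjusted p under 0.05. Prkar2b (-3.23 and -2.11) and Gnai3 (-1.68 and -1.37) lay below 0 and Prkaca (0.94 and 0.41) above it in both transfections.

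Of the 10 genes Prkar2b was the most depleted from Ago2-IP RNA, with 23.6, 24.3, 21.2 and 16.6 CPM in polyA control against 1.56, 2.78, 1.47 and 3.07 CPM in Ago2-IP control on this scale. The log2 difference was -3.23 (SE 0.29, adjusted p = 5.7e-10) in control and -2.11 (SE 0.34, adjusted p = 2.57e-05) in miR-106b cells. Gnai3 was lower in Ago2-IP RNA as well, by -1.68 (SE 0.16) and -1.37 (SE 0.18). Prkaca stood at 409 ± 5.94 CPM in Ago2-IP control and 213 ± 5.51 CPM in polyA control (SD, n = 4 each), a log2 difference of 0.94 (SE 0.09, adjusted p = 1.06e-09), and of 0.41 (SE 0.09, adjusted p = 0.000579) in miR-106b cells. Prkar2a was higher in Ago2-IP RNA by 0.57 (SE 0.10) and 0.54 (SE 0.11). These differences kept their direction and call under every alternative in which the gene was tested.

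The differences of Prkar1a and Gnai1 depended on the scaling. Prkar1a differed by 0.39 (SE 0.08, adjusted p = 0.000121) in control and 0.20 (SE 0.08, adjusted p = 0.0443) in miR-106b cells, but by 0.08 and 0.04, neither past the threshold, when libraries were scaled within each RNA kind. Without the filter on low counts it was 0.21 (adjusted p = 0.0854) and 0.17 (adjusted p = 0.284), and with library size only 0.07 and 0.05, again not called. Its call in miR-106b cells was also lost when any one of 12 of the 16 libraries was left out (0.17 to 0.21). The difference of Gnai1 in control cells, 1.12 (SE 0.43, adjusted p = 0.0224), was lost under scaling within each kind (0.82), with library size only (0.81), without the filter (0.94, adjusted p = 0.153), without polyA control replicate 3 (0.82) and without Ago2-IP control replicate 2 (0.98) or 4 (1.06). Prkar1b differed by 1.67 (SE 0.42, adjusted p = 0.000965) in control cells, although libraries of the 2 kinds overlapped (exact permutation p = 0.0571, two-sided), and this call held in all 23 alternative fits. In miR-106b cells it differed by 0.70 (SE 0.43, adjusted p = 0.180). Gnas, Gnai2 and Prkacb were not called in either transfection, with differences of 0.20, 0.01 and 0.16 in control cells, and the sign of all 3 turned when libraries were scaled within each RNA kind. Gnai2 in control cells then became lower in Ago2-IP RNA by the test (-0.29, adjusted p = 0.00446), as it did with library size only (-0.31, adjusted p = 0.00209). In miR-106b cells Gnai2 and Prkacb likewise became lower under scaling within each kind (-0.31, adjusted p = 0.00498, and -0.29, adjusted p = 0.0301) and with library size only (-0.30, adjusted p = 0.00471, and -0.28, adjusted p = 0.0338). Scaling within each kind moved the median of all genes in control cells from -0.03 to -0.34.

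The polyA control libraries enter both the change with miR-106b and the difference between RNA kinds in control cells, so that the values of the 2 comparisons are not independent and are given only side by side. For Prkar2b they were -1.27 and -3.23, for Gnai3 -0.63 and -1.68, for Prkaca 0.37 and 0.94, and for Prkar2a -0.13 and 0.57. The 25 cardiac genes were higher in every Ago2-IP library than in every polyA library by their summed level, as given above.

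To compare levels between genes, CPM were divided by the length of the exon union in kilobases (CPM per kb), and shares within a family were formed in each library, which do not depend on scaling. In polyA control the order was Gnai2 at 248 ± 5.60, Prkar1a at 122 ± 3.88, Prkaca at 96.9 ± 2.74, Gnas at 33.0 ± 3.68, Gnai3 at 14.6 ± 1.55, Prkar2a at 14.0 ± 1.30, Prkacb at 7.76 ± 0.138, Prkar2b at 6.65 ± 1.07, Prkar1b at 0.443 ± 0.226 and Gnai1 at 0.348 ± 0.198 CPM per kb (SD, n = 4). Gnai3 and Prkar2a overlapped, and so did Prkar1b and Gnai1, and every other neighbour in this order was apart in all libraries. Dividing by the longest protein-coding transcript raised Gnas to 93.5 ± 10.4 CPM per kb, next to Prkaca at 105.9 ± 2.99, because the exon union of Gnas covers all its alternative starts. It also turned part of the order, with Prkar2a at 17.99 ± 1.67 and Prkacb at 15.7 ± 0.278 above Gnai3 at 14.6 ± 1.55 CPM per kb, although the libraries of each overlapped with those of Gnai3. In Ago2-IP control Prkaca (150.6 ± 2.58 CPM per kb) was above Prkar1a (129 ± 2.09), and Prkar2b, at 0.557 ± 0.208, overlapped with Gnai1 at 0.618 ± 0.161.

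The make-up of PKA mRNA differed between the groups accordingly. Prkar2b was 5.0, 5.17, 4.48 and 3.85% of the regulatory subunit mRNA per length in polyA control, 1.60, 1.96, 3.02 and 1.10% in polyA miR-106b, and at most 0.526% in any Ago2-IP library. Prkar1a supplied most of the rest, 85.3 ± 0.979% in polyA control and 88.5 ± 0.922% in polyA miR-106b (SD, n = 4). Prkaca made up 92.6 ± 0.0750% of the catalytic subunit mRNA in polyA control and 93.6 ± 0.937% in polyA miR-106b, and the remainder was Prkacb. Regulatory to catalytic mRNA stood at 1.36, 1.42, 1.43 and 1.27 in polyA control and at 1.05, 1.04, 1.21 and 1.03 in polyA miR-106b, with no overlap, and at 0.905 to 1.002 in the Ago2-IP libraries. Gnai3 was 5.12, 5.81, 6.03 and 5.16% of Gi alpha mRNA in polyA control, 3.84, 3.54, 4.86 and 2.70% in polyA miR-106b and 1.41 to 2.23% in Ago2-IP RNA, and Gnai2 made up 93.9% or more in every library. The ratio of Gnas to summed Gi alpha mRNA overlapped between transfections in polyA RNA (0.109 to 0.139 in control, 0.0912 to 0.127 in miR-106b), and in Ago2-IP RNA it did not overlap (0.143 to 0.154 in control, 0.102 to 0.142 in miR-106b). Divided by the longest protein-coding transcript instead, the mean in polyA control was 12.9% for Prkacb (7.42% by exon union), 3.32% for Gnai3 (5.53%) and 0.213 for the ratio of Gnas to Gi alpha (0.1253). These shares restate the levels of the 10 genes and were not tested.

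**Figure D5:**
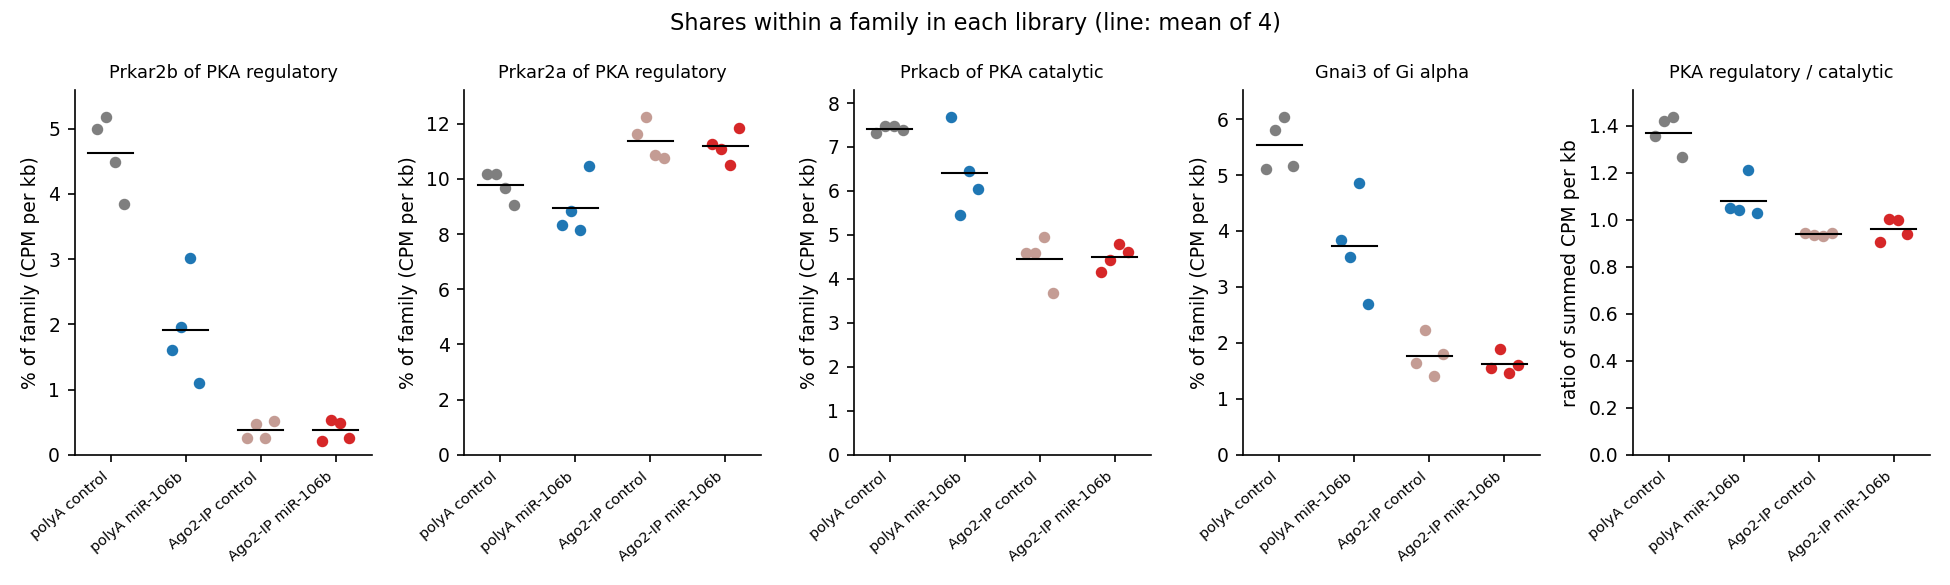
Share of Prkar2b and Prkar2a in regulatory, of Prkacb in catalytic and of Gnai3 in Gi alpha mRNA (y axes, percent of summed CPM per kb), and the ratio of regulatory to catalytic mRNA, in each library by group; lines are means of 4. Prkar2b was 3.85 to 5.17% in polyA control, 1.10 to 3.02% in polyA miR-106b and below 0.53% in Ago2-IP RNA.

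Around these 10 genes, 63 of 76 other genes of the pathway in 6 lists passed the filter. With miR-106b in polyA RNA 29 of the 63 rose and 8 fell, against 19.0% and 21.5% of all genes tested, with a median log2 fold change of 0.45, where the 10 genes had 0.01 and all genes -0.05. In Ago2-IP RNA 0 of the 63 changed, and the Ago2:polyA ratio of 26 fell and of 0 rose, against 19.7% and 7.61% of all genes. In control cells 35 of the 63 were higher and 11 lower in Ago2-IP than in polyA RNA, against 35.1% and 34.6%.

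Of the other G protein alpha subunits 1 of 8 tested rose and 0 fell in polyA RNA. This was Gna12, which signals to RhoA, from 196 ± 3.71 to 267 ± 53.5 CPM (SD, n = 4 each), and it was also the only one of the list whose ratio fell (-0.56, adjusted p = 0.00794). Of the beta and gamma subunits 5 of 14 rose and 2 fell. Among those called with at least 5 CPM on average, Gngt2 rose most (log2 fold change 1.72, adjusted p = 0.00115, at 2.74 ± 0.511 and 9.39 ± 3.69 CPM) and Gng12 fell most (-0.37, adjusted p = 0.0389). Of the adenylate cyclases, which make cAMP, 5 of 8 rose and 0 fell. Adcy5, a main cyclase of heart and striatum that Gi alpha inhibits, rose most, from 60.0 ± 12.0 to 136.9 ± 37.2 CPM (1.19, adjusted p = 0.000757), and was at 232 ± 10.5 CPM in Ago2-IP control.

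Of the A-kinase anchoring proteins (AKAPs), which tether the regulatory subunits to sites in the cell, 4 of 12 rose, 3 fell and 5 did not pass the test. Akap6, the anchor of the muscle nuclear envelope, rose from 37.2 ± 7.91 to 80.3 ± 16.2 CPM (1.11, adjusted p = 0.000692), and Akap12, also called gravin, fell from 2403 ± 134 to 1274 ± 487 CPM (-0.92, adjusted p = 0.0101). Akap12 was at 192 ± 149 CPM in Ago2-IP control. The ratio fell for Akap1 (-0.79), the mitochondrial anchor, for Akap6 (-1.23) and for Akap13 (-0.47). Of the PKA inhibitors and other cAMP effectors 7 of 9 rose and 0 fell, with the largest rise among those of at least 5 CPM in Popdc2, a cAMP-binding membrane protein of heart and skeletal muscle, from 180.4 ± 31.0 to 438 ± 97.8 CPM (1.28, adjusted p = 0.000683). Of the G protein regulators 7 of 12 rose and 3 fell. Among those called with at least 5 CPM on average, Gpsm3 (1.32, adjusted p = 0.00369) and Gpsm2 (-0.91, adjusted p = 0.00482), both modulators of Gi alpha, were at the ends. The cardiac marker list moved with the same groups, as given above, and its part in these counts was not tested.

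The genes with the profile most like Prkaca and Gnas were searched among 9988 genes by Pearson's r of log2 CPM over the 16 libraries, as a description, since the libraries form groups and share their scaling. For Prkaca they were D17Wsu92e (r = 0.995), Cisd1 (0.992) and Vegfb (0.992), with 0.982 to 0.990 within the 8 polyA libraries and 0.674 to 0.885 within the 8 Ago2-IP libraries. For Gnas they were Mocs3 (0.852), Fbxl17 (0.836) and Aven (0.817), with 0.825 to 0.938 within polyA and 0.679 to 0.886 within Ago2-IP RNA. The highest r for Gnas was thus lower than that for Prkaca.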

How the data were processed

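The authors sequenced single-end reads of 50 bases, removed ribosomal reads, aligned the rest to GRCm38 with TopHat2 (version 2.1.1 in the methods, 2.0.10 in the submitters' processing notes) and counted reads on genes with HTSeq (0.9.1). The deposited values are whole-number counts per gene and library, with no normalization. The members and all gene lists were chosen with earlier results of these data known.

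Counts were analysed with edgeR 4.0.16 (R 4.3.3) and DESeq2 1.42.0, and lengths, seed matches and shares with Python. Genes with at least 1 CPM in at least 3 of 4 libraries of any group were tested, after the study's filter. The polyA and the Ago2-IP libraries were fitted separately with TMM within each kind (quasi-likelihood F test, robust, two-sided), and the ratio and the contrasts of RNA kinds over 16 libraries with TMM over all. Fold changes used a prior count of 0.125. Exact permutation tests used log2 CPM (prior count 2). Tests were checked on simulated counts.

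Pathway genes named are the largest rise and fall of each list among those called with at least 5 CPM on average, plus those called for the ratio where a list had 3 or fewer. One listed gene was not analysed here. Alternatives were other scalings, filters and tests, a replicate block, all libraries in 1 fit and leaving out each library. Replicates were separate cultures, and intervals from counts of 0 cover counting error only.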

Additional observations from a re-analysis of the deposited data

Results flagged for a closer look

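Of 40 groups of 4 libraries checked (10 genes in 4 groups), 2 held a library far from the other 3, and chance gives about 1 in 20. Both were polyA control replicate 4. Prkar1a was at 502.5 CPM there, against 533 to 539 CPM in the other 3 control libraries. Prkar1b was at 2.97 CPM, against 1.15 to 1.35 CPM, and without this library its rise with miR-106b passed the threshold (log2 fold change 1.33, adjusted p = 0.0255).

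The change of Prkaca with miR-106b differed between the RNA kinds. The interaction over 16 libraries was -0.54 in log2 (adjusted p = 0.00193 by edgeR's quasi-likelihood F test), where all 4 miR-106b libraries were above all 4 controls in polyA RNA and the groups overlapped in Ago2-IP RNA.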

How the results depend on the processing

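Of 1234 values recomputed under alternatives, 1119 were unchanged, which for a fold change means the same direction and side of the threshold and for a count of calls a value within 1.5 times the main one. Among the 10 genes, the counts called moved in Ago2-IP RNA from 0 to 1 with no low-count filter and under the replicate block (0 to 1 when leaving out a library, 1 without Ago2-IP miR-106b replicate 1), for the ratio from 1 to 2 without a filter and with the likelihood ratio test (1 to 2 when leaving out a library, 2 without polyA miR-106b replicate 3), and between RNA kinds in control cells from 7 to 4 with at least 10 counts in every library, where Gnai1, Prkar1b and Prkar2b were no longer tested. In miR-106b cells the last count was 5 and ran from 4 to 6 over the alternatives. Over all genes in Ago2-IP RNA, 0 calls became 20 without a filter, 2 with at least 10 counts, 2 with DESeq2's Wald test, 18 with the likelihood ratio test, 1 with the replicate block and 0 to 40 when leaving out a library (40 without Ago2-IP miR-106b replicate 4). Replicate numbers did not pair the libraries (correlations of same-numbered libraries -0.52 to 0.38, the best match in 2 of 16). The replicate block also took the call from Prkar1a between RNA kinds in miR-106b cells (0.20, adjusted p = 0.0628).

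Signs turned as follows, for values not called in the main analysis, and the cause was not tested. Ranges are those over leaving out each library. Gnai2 in polyA RNA came to 0.033 with DESeq2 size factors and also with its Wald test, 0.092 with all 16 libraries in 1 fit, and -0.064 to 0.063. Gnai2 between RNA kinds in control cells came to -0.0069 with DESeq2 size factors, -0.0070 with its Wald test, -0.29 with TMM within each kind, -0.31 with library size only, -0.027 with at least 10 counts, -0.17 with no filter, and -0.083 to 0.029. Under TMM within each kind and library size only the Gnai2 difference became a call in the other direction (adjusted p = 0.00446 and 0.00209). Its ratio change was 0.0056 with library size only. Gnas between RNA kinds came to -0.11 with TMM within each kind and -0.12 with library size only in control cells, and to -0.15 to 0.093 in miR-106b cells. Prkacb between RNA kinds in control cells came to -0.15, -0.16 and -0.021 with TMM within each kind, library size only and no filter. In Ago2-IP RNA Prkacb came to 0.0052 with at least 10 counts and -0.087 to 0.038, Prkaca to -0.054 to 0.012, Prkar1b to -0.20 to 0.40 and Prkar2a to -0.053 to 0.031. There, Prkar1a came to -0.012 with all libraries in 1 fit, -0.0066 with no filter and -0.0042 to 0.024, and Prkar2b to -0.021 in 1 fit, -0.015 with no filter, -0.018 with the replicate block and -0.23 to 0.22. The ratio of Prkar2a came to 0.027 with DESeq2's Wald test, 0.022 with its size factors, 0.115 with TMM within each kind, 0.119 with no filter, 0.013 with at least 10 counts, 0.0016 with the likelihood ratio test, 0.14 with library size only, and -0.092 to 0.071.

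All 16 libraries in 1 fit moved the median of all genes in polyA RNA from -0.05 to 0.07, and the share of calls that were higher from 47.0% to 61.4%. Depth limited Gnai1, Prkar1b and, in Ago2-IP RNA, Prkar2b.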
